A study of Mus musculus with 6 samples.

Results

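The ERBB receptors and their ligands were followed as 8 genes of the 17739 in the deposited expression table: the receptors Egfr, Erbb2, Erbb3 and Erbb4 and the ligands Egf, Hbegf, Tgfa and Nrg4. They were taken by name, and every one of them was listed above 0 in all 6 libraries. RNA came from organoids, which are fragments of mammary epithelium freed by enzyme digestion and enriched by brief centrifugation, of FVB mice on lactation day 1. A library was made from each of 3 mice with a conditional Nmi knockout (genotype Nmi-/-) and from each of 3 wild-type mice. Nmi codes for an interferon-induced partner of Myc and STAT factors, and the study asked how its loss contributes to excess growth of the mammary epithelium. The sources used here do not give the promoter that drives the deletion, the age of the mice, or whether wild-type mice carried a modified allele.

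ERBB receptors are tyrosine kinases that act in pairs. EGF, TGF-alpha and HB-EGF bind EGFR, HB-EGF also binds ERBB4, and NRG4 binds ERBB4. ERBB2 has no known soluble ligand of its own and ERBB3 has little kinase activity, so both signal mainly as partners of other receptors. In the mammary gland EGFR serves duct growth, and ERBB4 acts through STAT5 in the alveolar cells that make milk.

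Upstream DNA is shown for Egf and Erbb2, the members that varied most between libraries, and for Tgfa, a ligand whose level ran another way. Each line holds bases -250 to -21 before the start of the gene, 5′ to 3′, from RefSeq on GRCm38.p6, and capitals mark a GC box (GGGCGG, either strand).
Egf, chr3:129755343-129755572, minus strand: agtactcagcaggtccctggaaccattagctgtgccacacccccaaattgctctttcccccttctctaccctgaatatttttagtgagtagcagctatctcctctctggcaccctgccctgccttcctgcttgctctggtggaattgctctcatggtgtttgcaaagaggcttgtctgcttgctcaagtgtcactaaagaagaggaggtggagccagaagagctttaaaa
Erbb2, chr11:98412234-98412463, plus strand: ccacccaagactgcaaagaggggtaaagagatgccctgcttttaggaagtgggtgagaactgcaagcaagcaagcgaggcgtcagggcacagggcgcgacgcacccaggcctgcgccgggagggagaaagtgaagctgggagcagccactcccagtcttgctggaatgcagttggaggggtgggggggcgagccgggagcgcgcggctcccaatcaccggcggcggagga
Tgfa, chr6:86194972-86195201, plus strand: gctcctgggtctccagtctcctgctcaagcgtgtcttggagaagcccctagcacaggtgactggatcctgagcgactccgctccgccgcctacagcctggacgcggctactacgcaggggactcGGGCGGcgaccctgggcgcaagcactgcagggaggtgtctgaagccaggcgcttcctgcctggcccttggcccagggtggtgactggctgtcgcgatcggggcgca
Of the 8 members, 6 had a window of 300 bases in the RefSeq table, and Egf had 2 such windows. The window at the Egf start shown was 49.0% G and C, against 66.0% for Erbb2 and 70.7% for Tgfa. A STAT5 core (TTCNNNGAA), searched on both strands, was in 0 of these 7 windows and in 8.30% of 32851 windows of the same length. An AP-1 motif (TGANTCA) was also in 0 of the 7, and in 7.81% of all windows. A GC box was in the windows of Tgfa and Egfr and in 35.7% of all windows. These matches describe letters in the windows only.

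Values were FPKM (fragments per unit of gene length and of sequencing depth), so levels of different genes can be set side by side within a library. Library sums ran from 379478 to 509453 FPKM, and the absolute depth is unknown. A list of 20 milk transcripts took between 48.0% of the FPKM sum in wild-type replicate 1 and 76.9% in knockout replicate 3. Nmi had 0.188, 0.547 and 0.564 FPKM in knockout replicates 1, 2 and 3, against 4.60, 2.82 and 2.32 FPKM in wild-type replicates 1, 2 and 3, and these ranges did not overlap (log2 difference -1.54, SE 0.23, adjusted p = 0.372 by limma). Luminal keratins were abundant in every library (Krt18 from 210 to 1627 FPKM, Krt8 from 198 to 1515 FPKM), and so were the basal Krt14 (44.6 to 149 FPKM) and Krt5 (25.6 to 76.03 FPKM). The fat cell markers Adipoq, Plin1, Lep and Cfd and the leukocyte markers Ptprc, Adgre1, Cd3e and Cd79a stayed under 1 FPKM throughout. The endothelial list, led by Cdh5, summed to 44.4 to 84.1 FPKM in the knockout and 42.7 to 91.7 FPKM in wild type. Fibroblast markers, led by Col3a1, summed to 32.2 to 59.1 FPKM in the knockout and 22.7 to 52.1 FPKM in wild type. The leukocyte list as a whole, led by Cd68, summed to 8.07 to 14.9 FPKM and 10.4 to 12.3 FPKM. In the list of fat cells only Fabp4, which endothelial cells also express, reached 1 FPKM (157 to 440.4 FPKM in the knockout and 212 to 672 FPKM in wild type). In the list of Schwann cells, Sox10, which mammary epithelium also expresses, made up most of the sum (45.5 to 98.6 FPKM in the knockout and 92.6 to 131 FPKM in wild type), while S100b stayed under 1 FPKM. In bulk RNA, fewer cells of a type and less RNA per cell cannot be told apart.

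For none of the members did the difference between knockout and wild type pass the test. Nor did that of Nmi, the targeted gene, whose adjusted p of 0.372 by limma was the smallest of all genes tested. A real difference can thus go uncalled here. Of the 8 members, 6 passed the filter of at least 1 FPKM in at least 3 libraries and were tested, and Erbb4 and Nrg4 did not reach 1 FPKM in any library. Among the 6, 0 passed an adjusted p under 0.05 (limma on log2(FPKM + 1), Benjamini-Hochberg over 9767 genes), where the share called over all genes was 0%. At an unadjusted p under 0.05 there were likewise 0 of 6, against 1.33% of all genes (0.184% higher and 1.15% lower in the knockout). These were 18 genes higher and 112 lower as deposited, and 87 higher and 82 lower after trimmed-mean rescaling. The ranges of the genotypes overlapped for each of the 8 members, and they did not overlap for 4.61% of the genes tested (0.778% higher and 3.83% lower). The median difference of all genes was -0.21 on the log2 scale as deposited and -0.01 after trimmed-mean rescaling, and differences relative to the median of all genes as deposited are given for this reason.

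**Figure D1:**
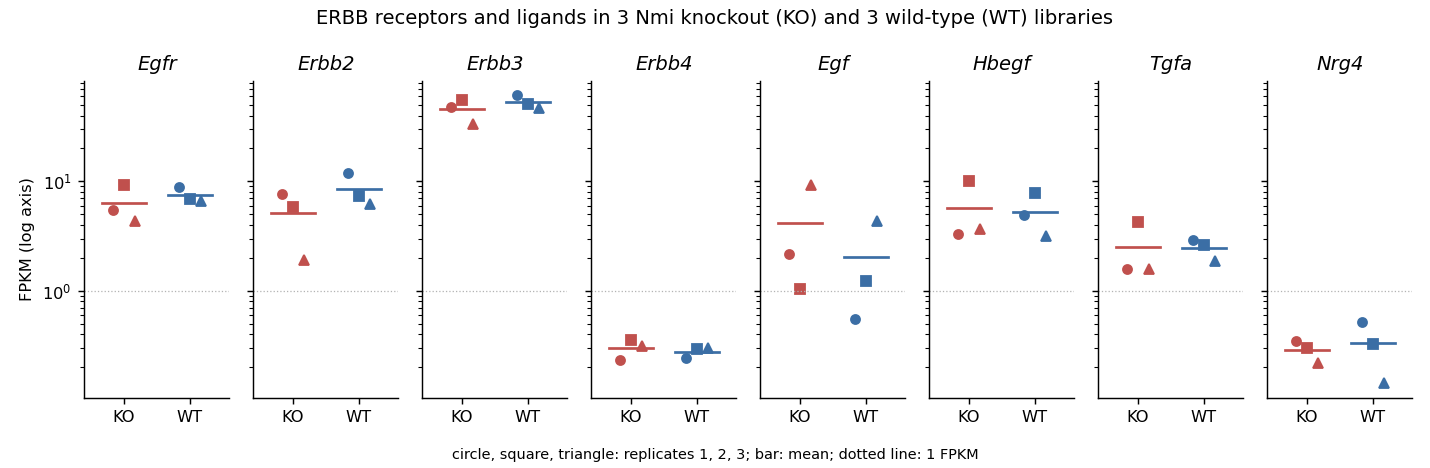
FPKM of the 8 members on a log axis in the 3 Nmi knockout (KO, red) and 3 wild-type (WT, blue) libraries; symbols mark replicates and bars the means. Erbb3 lies between 33.3 and 61.1 FPKM and Erbb4 and Nrg4 under 1 FPKM in both genotypes, and Egf has the widest spread.

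Erbb3 was the most abundant receptor transcript in every library. It had 48.1, 55.8 and 33.3 FPKM in knockout replicates 1, 2 and 3, against 61.1, 50.7 and 47.2 FPKM in wild-type replicates 1, 2 and 3. The value of knockout replicate 3 lay below the 5 others, which overlapped between genotypes. Erbb3 took between 74.5% and 83.5% of the summed FPKM of the 4 receptors. Its means were 45.7 ± 11.4 FPKM in the knockout and 53.0 ± 7.24 FPKM in wild type (SD, n = 3 each). The log2 difference was -0.23 (SE 0.29, 95% confidence interval -0.86 to 0.40), with an adjusted p of 0.774 by limma. Relative to the median of all genes it was -0.02.

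Erbb2, the partner preferred by the other receptors, was the receptor with the largest log2 difference between genotypes among the 3 tested. It had 7.65, 5.89 and 1.92 FPKM in knockout replicates 1, 2 and 3, against 11.8, 7.37 and 6.16 FPKM in wild-type replicates 1, 2 and 3. Knockout replicate 3 was the lowest and wild-type replicate 1 the highest, while the other 4 libraries lay between 5.89 and 7.65 FPKM. The means were 5.15 ± 2.93 FPKM in the knockout and 8.45 ± 2.98 FPKM in wild type (SD, n = 3 each). The log2 difference was -0.71 (SE 0.39, interval -1.56 to 0.13), unadjusted p = 0.0909 and adjusted p = 0.768 by limma. Relative to the median of all genes it was -0.51. The exact permutation test of Erbb2 alone gave p = 0.3, and with 3 mice a group this test cannot go below 0.1. The log2 difference was -0.25 without knockout replicate 3, -0.47 without wild-type replicate 1 and -0.01 without both.

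Egfr, the receptor of Egf, Tgfa and Hbegf, stood at a level close to that of Erbb2. It had 5.44, 9.20 and 4.34 FPKM in knockout replicates 1, 2 and 3, against 8.87, 6.89 and 6.68 FPKM in wild-type replicates 1, 2 and 3. The knockout held both the highest and the lowest value, so the range of the knockout enclosed that of wild type. Its log2 difference was -0.26 (SE 0.28, interval -0.87 to 0.35, adjusted p = 0.768 by limma), and -0.05 relative to the median of all genes.

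Erbb4 was the receptor with the lowest FPKM. Low entries, here and for Nrg4, can be failed estimates, since Gapdh too was listed at only 0 to 0.0769 FPKM. It had 0.235, 0.356 and 0.312 FPKM in knockout replicates 1, 2 and 3, against 0.242, 0.291 and 0.298 FPKM in wild-type replicates 1, 2 and 3. The highest value was 1.52 times the lowest as deposited and 2.16 times after scaling to the FPKM sum outside the milk list, and the ranges overlapped. Its share of the receptor FPKM was between 0.295% and 0.783%. It was too low for the main fit; with no filter its log2 difference was 0.03 (SE 0.05, adjusted p = 0.869 by limma).

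The order of the receptors was Erbb3 first and Erbb4 last in all 6 libraries, while Erbb2 and Egfr changed places. Erbb2 was above Egfr in knockout replicate 1, at 1.41 times its FPKM, and in wild-type replicates 1 (1.33) and 2 (1.07). Erbb2 lay below Egfr in knockout replicates 2 (0.64) and 3 (0.443) and in wild-type replicate 3 (0.923). Their order thus varied among libraries of both genotypes. The ratio of Erbb3 to Egfr stayed between 6.07 and 8.85, whereas that of Erbb3 to Erbb2 ran from 5.17 in wild-type replicate 1 to 17.3 in knockout replicate 3.

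**Figure D2:**
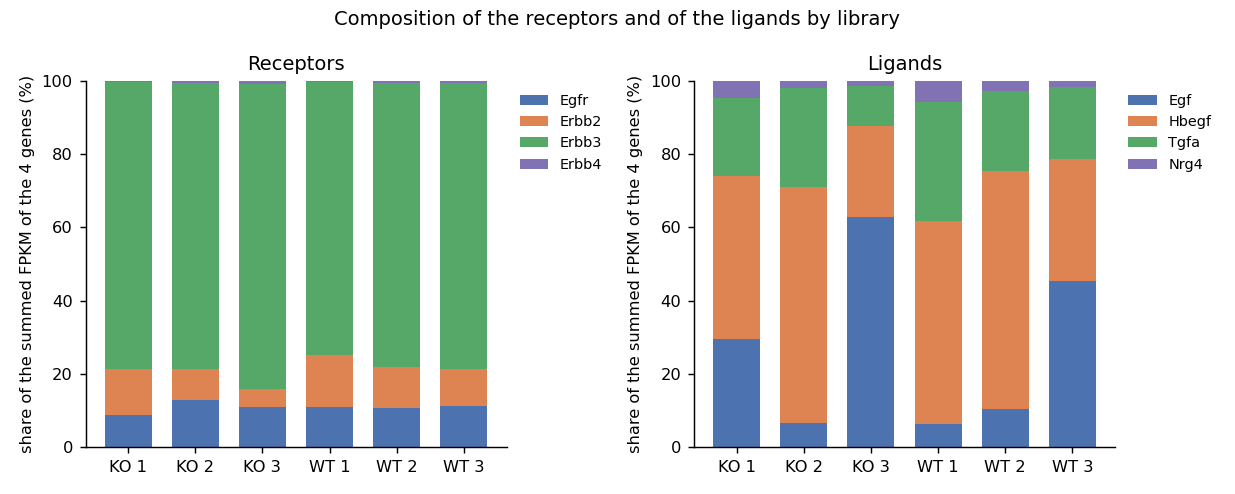
Share of each gene in the summed FPKM of the 4 receptors (left) and of the 4 ligands (right), with 1 bar per library, knockout (KO) before wild type (WT). Erbb3 takes 74.5% to 83.5% of the receptor sum in every library, while Egf takes between 6.22% and 62.9% of the ligand sum.

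Of the 4 ligands followed as members, Egf, which founded the family, differed most between mice. It had 2.19, 1.04 and 9.25 FPKM in knockout replicates 1, 2 and 3, against 0.552, 1.23 and 4.31 FPKM in wild-type replicates 1, 2 and 3. The highest value was 16.7 times the lowest, and each genotype had 1 library well above its other two. The means were 4.16 ± 4.45 FPKM in the knockout and 2.03 ± 2.00 FPKM in wild type (SD, n = 3 each), so the spread within each genotype was about as large as its mean. The log2 difference was 0.62 (SE 0.56, interval -0.60 to 1.84, adjusted p = 0.768 by limma) and 0.83 relative to the median of all genes. It turned to -0.05 without knockout replicate 3.

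Hbegf, which encodes a membrane-anchored ligand released by shedding, was the ligand with the highest FPKM in 4 of 6 libraries. It had 3.32, 10.2 and 3.65 FPKM in knockout replicates 1, 2 and 3, against 4.92, 7.80 and 3.17 FPKM in wild-type replicates 1, 2 and 3. Replicate 2 was the highest library of each genotype, and the ranges overlapped. The log2 difference was 0.02 (SE 0.38, interval -0.83 to 0.86, adjusted p = 0.985 by limma) and 0.22 relative to the median of all genes.

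Tgfa, another EGFR ligand, lay below Hbegf in every library. It had 1.60, 4.29 and 1.59 FPKM in knockout replicates 1, 2 and 3, against 2.89, 2.64 and 1.86 FPKM in wild-type replicates 1, 2 and 3. Knockout replicate 2 was the highest library for Tgfa, as for Hbegf and Egfr, and the ratio of Hbegf to Tgfa stayed between 1.70 and 2.96. The log2 difference was -0.06 (SE 0.29, interval -0.70 to 0.57, adjusted p = 0.927 by limma) and 0.14 relative to the median of all genes.

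Nrg4, a ligand of ERBB4, was as low as its receptor. It had 0.347, 0.300 and 0.218 FPKM in knockout replicates 1, 2 and 3, against 0.520, 0.328 and 0.143 FPKM in wild-type replicates 1, 2 and 3. Wild type held both extremes. With no filter its log2 difference was -0.04 (SE 0.11, adjusted p = 0.911 by limma).

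**Figure D3:**
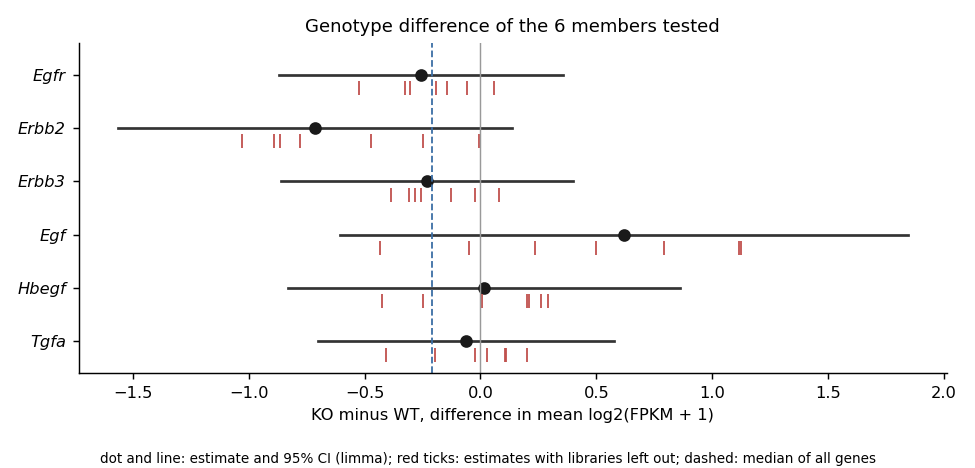
Difference between knockout and wild type in mean log2(FPKM + 1) for the 6 members tested, with 95% confidence intervals (lines) and the estimates with 1 or 2 libraries left out (red ticks). All 6 intervals include 0, and the dashed line marks the median of all genes at -0.21.

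The 95% intervals give the uncertainty of each genotype difference in the fit as deposited, before adjustment for the number of genes. Rescaling moved the estimates, and the intervals do not cover that. For Erbb3 the intervals ran from 0.55 to 1.32 times the wild-type level on the FPKM + 1 scale, and for Egfr from 0.548 to 1.28 times. For Erbb2 they reached down to 0.338 times, and for Egf up to 3.59 times.

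As deposited, Egf was highest, and Erbb2, Erbb3, Egfr and Tgfa were lowest, in knockout replicate 3. For Tgfa this was nearly a tie with knockout replicate 1 (1.590 against 1.597 FPKM). In wild-type replicate 1 Egf was lowest, and Erbb2 and Erbb3 were highest. From the library with the least milk RNA to the one with the most, Egf was 0.552 (wild-type replicate 1), 1.23 (wild-type replicate 2), 1.04 (knockout replicate 2), 2.19 (knockout replicate 1), 4.31 (wild-type replicate 3) and 9.25 FPKM (knockout replicate 3). Of the 15 pairs of libraries, 14 had the same order by Egf as by milk share, and at least 14 were so ordered for 0.962% of the genes tested. Erbb3 followed the milk order in 1 of the 15 pairs, Erbb2, Egfr, Tgfa and Nrg4 in 3, Hbegf in 5 and Erbb4 in 10. The median gene followed it in 3 pairs, so the order of most members was that of genes in general. FPKM divides by a total that milk transcripts fill, and the part of milk share in these levels was not tested.

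Scaling each library to its FPKM sum outside the milk list narrowed the range of Erbb3 and Erbb2 and widened that of Egf. Rescaled Erbb3 was 48.5, 53.3 and 43.4 in knockout replicates 1, 2 and 3, against 47.5, 47.2 and 51.7 in wild-type replicates 1, 2 and 3. The highest was then 1.23 times the lowest, against 1.84 times as deposited. For Erbb2 the highest was 3.67 times the lowest, against 6.15 times as deposited, with knockout replicate 3 at 2.51 and wild-type replicate 1 at 9.20. For Egf it was 28.1 times, against 16.7 times as deposited. Rescaled Egf followed the milk order in 14 of 15 pairs, and 4.49% of the genes tested did so in at least 14. Rescaled Erbb3 followed it in 7 pairs, Egfr in 6 and Erbb2 in 3. The luminal keratin gene Krt8, like Erbb2, was lowest in knockout replicate 3 (198 FPKM) and highest in wild-type replicate 1 (1515 FPKM), and the ratio of Erbb2 to Krt8 varied 2.14 times. The luminal markers Krt18, Krt19, Epcam and Cdh1 had the same lowest and highest libraries. The luminal marker Elf5 did not: it was lowest in knockout replicate 2 (142 FPKM) and highest in knockout replicate 1 (237 FPKM).

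**Figure D4:**
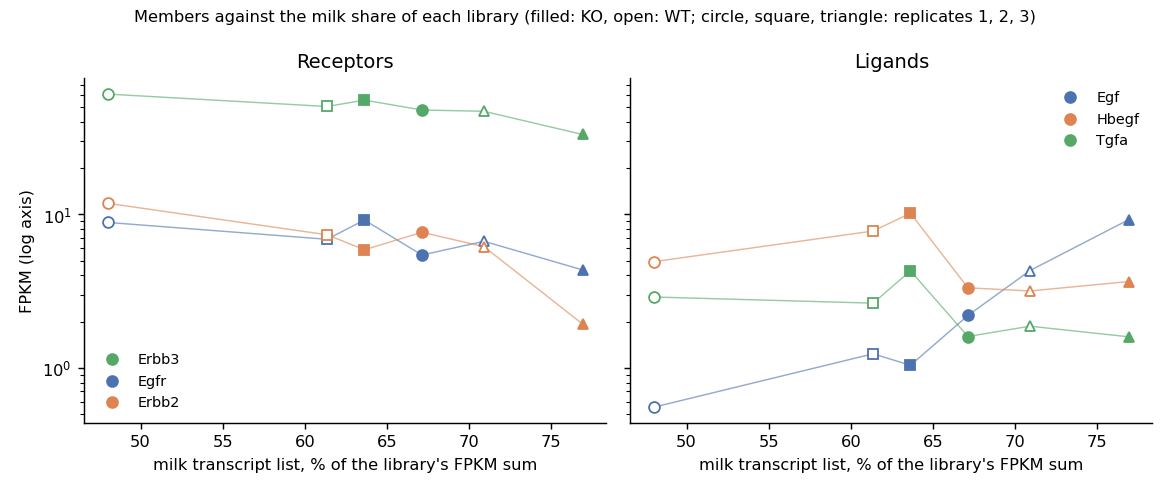
FPKM on a log axis of 3 receptors (left) and 3 ligands (right) against the share of the milk transcript list in each library's FPKM sum; filled symbols are knockout and open symbols wild type. Egf climbs from 0.552 to 9.25 FPKM across the libraries while Erbb2 is lowest, at 1.92 FPKM, in the library with the largest milk share.

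Hbegf, Tgfa and Egfr were highest in knockout replicate 2, a library that was also highest in the basal markers Acta2 and Myh11. The other 4 of the 6 basal markers (Krt5, Krt14, Trp63 and Oxtr) were highest in wild-type replicate 1. The 6 basal markers summed to 293, 1063 and 306 FPKM in knockout replicates 1, 2 and 3, against 777, 632 and 375 FPKM in wild-type replicates 1, 2 and 3. The luminal markers summed to 2575, 3306 and 1041 FPKM in knockout replicates 1, 2 and 3, against 5195, 3440 and 2570 FPKM in wild-type replicates 1, 2 and 3. Of the 6 basal markers, only Trp63 had an unadjusted p under 0.05 (0.0437, adjusted p = 0.768 by limma), beside 1.33% of all genes tested. The part of basal and luminal content in the levels of the members was not tested.

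The genes whose centred log2 profile over the 6 libraries lay nearest to that of each member were found among the 9767 tested. Fabp3, a fatty acid binding protein gene of the milk list, was nearest to Egf with a root mean square difference of 0.118 on the log2 scale, followed by the galectin gene Lgals12 (0.206). Agpat2, an enzyme of phospholipid and triglyceride synthesis, was nearest to Erbb2 (0.064), followed by Hadhb of mitochondrial fatty acid oxidation (0.099). Tanc2 (0.021) and Gkap1 (0.024) lay nearest to Erbb3, and Arhgef17 (0.032) and Atrnl1 (0.034) to Egfr. For Hbegf they were Noct (0.099) and the tubulin gene Tubb6 (0.115), and for Tgfa Mest (0.059) and Msrb3 (0.063). Agpat2 had 9.32, 7.65 and 2.21 FPKM in knockout replicates 1, 2 and 3, against 13.9, 8.67 and 6.99 FPKM in wild-type replicates 1, 2 and 3. As for Erbb2 and Erbb3, knockout replicate 3 was the lowest and wild-type replicate 1 the highest. These libraries had the most and the least milk RNA. As deposited, 61.9% of the genes tested followed the milk order in at most 3 of 15 pairs, so such a likeness was common.

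Of the 7 other ligand genes of the family, 6 were in the table, and Nrg1 and Btc passed the filter. Nrg1, an ERBB3 and ERBB4 ligand, had 1.41, 5.19 and 2.70 FPKM in knockout replicates 1, 2 and 3, against 4.56, 4.41 and 1.93 FPKM in wild-type replicates 1, 2 and 3. Btc, which binds EGFR and ERBB4, had 1.07, 1.50 and 0.390 FPKM in the knockout, against 2.92, 1.31 and 1.03 FPKM in wild type, in the same order of replicates. Their log2 differences were -0.22 and -0.45, with adjusted p of 0.804 and 0.768 by limma, and the ranges overlapped. Areg, the EGFR ligand of duct growth, had 0.181, 0.420 and 0.0866 FPKM in knockout replicates 1, 2 and 3, against 1.99, 0.582 and 0.225 FPKM in wild-type replicates 1, 2 and 3. Epgn had 0.185 to 0.499 FPKM in the knockout and, in wild type, 5.29 FPKM in replicate 1 and 0.461 and 0.441 FPKM in replicates 2 and 3. Wild-type replicate 1 was the highest library for both genes. Ereg stayed under 1 FPKM throughout. Nrg2 was the only gene of the family whose ranges did not overlap, with 0.168 to 0.260 FPKM in the knockout and 0.0604 to 0.125 FPKM in wild type. These values were all under 1 FPKM and outside the main fit, in which ranges did not overlap for 4.61% of genes.

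**Figure D5:**
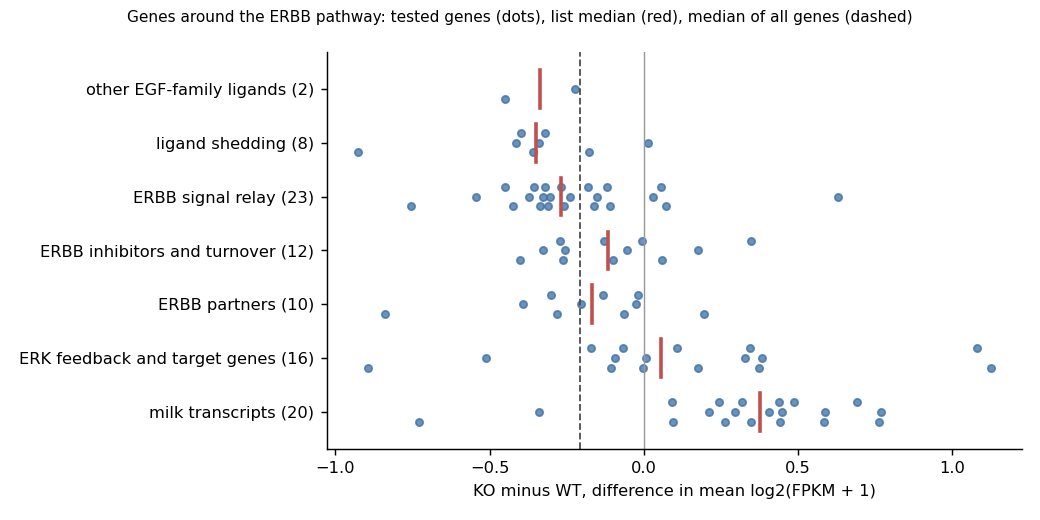
Difference between knockout and wild type in mean log2(FPKM + 1) of the tested genes (dots, number in brackets) in 7 lists around the ERBB pathway; red bars mark list medians and the dashed line the median of all genes. The list medians run from -0.35 for ligand shedding to 0.38 for milk transcripts.

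Around the receptors, 0 genes of any list passed the adjusted threshold in either direction. For ligand shedding, 8 of 9 genes were tested, with a median log2 difference of -0.35 beside -0.21 for all genes. Among them Adam9, a surface protease, had 26.0 ± 7.30 FPKM in the knockout and 29.0 ± 3.79 FPKM in wild type (SD, n = 3 each). In the same order of genotypes, Frmd8 (12.5 ± 7.15 and 22.4 ± 8.75 FPKM), which stabilises the sheddase complex, and Rhbdf1 (9.27 ± 2.60 and 12.7 ± 4.45 FPKM), an iRhom, had the smallest p (0.0647 and 0.211, adjusted p = 0.768 each by limma). Frmd8, like Erbb2 and Erbb3, was lowest in knockout replicate 3 and highest in wild-type replicate 1, the libraries with the most and the least milk RNA.

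The 23 genes of the signal relay were all tested, with a median of -0.27, 14 below and 9 above the median of all genes. Akt1 had 59.9 ± 5.35 FPKM in the knockout and 58.7 ± 4.49 FPKM in wild type, and Pik3r1 of PI3 kinase had 54.4 ± 8.71 and 52.2 ± 7.26 FPKM (SD, n = 3 each). Stat5a, which ERBB4 can activate, had 18.1 ± 6.01 and 11.7 ± 5.01 FPKM, a log2 difference of 0.63 (SE 0.36). Mapk3, which encodes ERK1, had 30.9 ± 16.0 and 49.1 ± 18.4 FPKM, a log2 difference of -0.75 (SE 0.44). Both had an adjusted p of 0.768 by limma, and their ranges overlapped.

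The 12 genes of inhibition and turnover had a median of -0.12, with 5 below and 7 above that of all genes. Errfi1, a feedback inhibitor of EGFR, had 65.8, 104 and 63.7 FPKM in knockout replicates 1, 2 and 3, against 55.6, 65.1 and 57.7 FPKM in wild-type replicates 1, 2 and 3. Its highest library was knockout replicate 2, the one highest in Hbegf and Tgfa. The ubiquitin ligase gene Nedd4 had 56.1 ± 16.1 FPKM in the knockout and 65.9 ± 8.16 FPKM in wild type, and Usp8, a deubiquitinase of receptor sorting, had 9.25 ± 3.09 and 12.4 ± 2.98 FPKM (SD, n = 3 each). Lrig3 was the only gene of this list whose ranges did not overlap, with 0.781 to 0.951 FPKM in the knockout and 1.01 to 1.96 FPKM in wild type (adjusted p = 0.768 by limma). Ranges did not overlap for 4.61% of all genes tested.

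The 10 partner genes had a median of -0.17, with 4 below and 6 above that of all genes. The chaperone gene Hsp90ab1 had 422 ± 59.7 FPKM in the knockout and 524 ± 145 FPKM in wild type, and the mucin gene Muc1 had 297 ± 23.1 and 265 ± 70.2 FPKM (SD, n = 3 each). Muc4, which binds ERBB2, had 66.8, 119 and 16.5 FPKM in knockout replicates 1, 2 and 3, against 92.4, 118 and 72.6 FPKM in wild-type replicates 1, 2 and 3. Muc4, like Erbb2, Erbb3, Egfr and Tgfa, was lowest in knockout replicate 3, the library with the most milk RNA. Yap1 had 23.1 ± 7.81 FPKM in the knockout and 29.8 ± 5.43 FPKM in wild type.

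Of 18 feedback and target genes of the ERK pathway, 16 were tested, with a median of 0.06, 2 below and 14 above that of all genes. Egr1, an immediate early transcription factor gene, had 17.1, 13.6 and 34.9 FPKM in knockout replicates 1, 2 and 3, against 4.57, 16.7 and 9.24 FPKM in wild-type replicates 1, 2 and 3. Egr1 was the 1 gene of the list with an unadjusted p under 0.05 (0.0305, adjusted p = 0.768 by limma), and its ranges overlapped. Of all genes tested, 1.33% had an unadjusted p under 0.05 by limma. Fos had 76.1, 44.0 and 189.9 FPKM in knockout replicates 1, 2 and 3, against 19.1, 59.7 and 51.3 FPKM in wild-type replicates 1, 2 and 3. Ier3 went the other way, with 92.03, 136 and 58.04 FPKM in knockout replicates 1, 2 and 3, against 305, 124 and 126 FPKM in wild-type replicates 1, 2 and 3. Knockout replicate 3 and wild-type replicate 1 thus stood at opposite ends for all 3 genes.

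The 20 milk transcripts had a median of 0.38, with 18 above the median of all genes. Csn2, which encodes beta-casein, had 111206, 91280 and 142436 FPKM in knockout replicates 1, 2 and 3, against 54112, 85706 and 125272 FPKM in wild-type replicates 1, 2 and 3. Glycam1 had 56019 ± 5545 FPKM in the knockout and 47738 ± 8354 FPKM in wild type, and Btn1a1, of the milk fat globule, had 417 ± 106 and 293 ± 126 FPKM (SD, n = 3 each). Plin2, which coats lipid droplets, had 462 ± 215 and 735 ± 245 FPKM. Of the 20, 0 were called and 1 (Muc15) had ranges that did not overlap, beside 4.61% of all genes tested. Csn2 and Egf shared their highest (knockout replicate 3) and lowest (wild-type replicate 1) libraries.

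Each member lies on its own locus of GRCm38 in GENCODE release M21. Erbb2 (chromosome 11, 98412470 to 98437716, plus strand) overlaps the coding gene Mien1 on the other strand, and Nrg4 (chromosome 9, 55220222 to 55326844, minus strand) overlaps Fbxo22 on the other strand. Egfr (chromosome 11, 16752203 to 16918158, plus strand) overlaps the antisense RNA Egfros, and Egf (chromosome 3, 129677565 to 129755316, minus strand) overlaps 3 antisense RNAs. Erbb3 (chromosome 10, 128567523 to 128589652, minus strand), Erbb4 (chromosome 1, 68032186 to 69108059, minus strand), Tgfa (chromosome 6, 86195223 to 86275719, plus strand) and Hbegf (chromosome 18, 36504927 to 36515805, minus strand) overlap no coding gene. The sources used here give no strand setting for the libraries, so reads of overlapping genes on opposite strands cannot be told apart.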

How the data were processed

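The series holds RNA-seq of organoids from 3 Nmi knockout and 3 wild-type mice, with 1 library per mouse. The limma p-values set each difference against the spread between these mice, drawn toward that of genes of like level. FPKM values were deposited by the authors as 1 table; FastQC, TopHat, SAMtools and Cufflinks and the builds mm10 and GRCm38 are named per the submitters' processing notes. The sources used here give no tool versions, strand setting or annotation release. Low values (0.001 to 0.1 FPKM) placed the relative depth of the libraries between 0.973 and 1.13 times that of wild-type replicate 1; the absolute depth is unknown, and no counting interval was computed. Gapdh was listed at no more than 0.0769 FPKM in any library and at 0 in 3 libraries, so a low entry can be a failed estimate.

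Genes with at least 1 FPKM in at least 3 libraries (9767) were fitted as log2(FPKM + 1) with limma 3.58.1 in R 4.3.3 (intensity trend, two-sided, Benjamini-Hochberg over all genes tested, threshold 0.05), so fold changes understate those of low genes. Single members were also tested by exact permutation in scipy 1.17.1. The fit was tested on simulated data. The members, the 7 pathway lists (99 genes) and the 7 marker lists (39 genes) were chosen with earlier results of these data known, so list counts are descriptions. Named genes were the members, Nmi, the 2 most abundant genes and the 2 with the smallest p of each pathway list, the 2 nearest profiles to each member, 4 keratins and the top gene of each marker list. A gene this rule names in the shedding list is not reported here. Other ligands, Trp63, Muc15, Gapdh and the genes called under an alternative were added after their values were seen. Erbin was matched through its older symbol Erbb2ip; Nrg3 was not analysed here. Alternatives covered the pseudocount, the filter, scaling, library weights, the trend and left-out libraries.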

Additional observations from a re-analysis of the deposited data

How the results depend on the processing

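Under 15 alternatives, in which 5 to 8 of the members could be tested, 0 members passed the adjusted threshold. Of the 6 members tested, 5 changed direction under at least 1 alternative, and the difference of Erbb2 shrank to -0.01 without wild-type replicate 1 and knockout replicate 3. Values are log2 differences. Rescaling turned Erbb3 (0.017, trimmed mean) and Tgfa (0.11 trimmed mean, 0.086 to the sum outside the milk list, 0.10 quantile). Library quality weights turned Hbegf to -0.60. Without both wild-type replicate 1 and knockout replicate 3, the differences were 0.057 for Egfr, 0.082 for Erbb3, -0.43 for Egf and 0.20 for Tgfa. With 1 library left out they ran from -0.52 to -0.06 for Egfr, -1.03 to -0.25 for Erbb2, -0.39 to -0.02 for Erbb3, -0.05 to 1.12 for Egf, -0.42 to 0.29 for Hbegf and -0.41 to 0.11 for Tgfa. The turned values were -0.05 for Egf without knockout replicate 3, and -0.42 and -0.25 for Hbegf without knockout replicate 2 or wild-type replicate 3. For Tgfa they were 0.11 without knockout replicate 1 or 3 and 0.03 without wild-type replicate 1. Over all genes, 0 were called by limma with each single library left out, 2 with library quality weights (Nmi and Cdk5rap1, both lower) and 1 without both end libraries (Gm7367, higher); the cause was not tested. An unadjusted p under 0.05 was reached by Hbegf with library quality weights, Erbb2 without knockout replicate 1, and Egf without knockout replicate 2 or wild-type replicate 3. The number of genes at an unadjusted p under 0.05, higher and lower, was 18 and 112 in the fit reported, 87 and 82 after trimmed-mean rescaling, 74 and 99 scaled to the sum outside the milk list, 86 and 91 after quantile normalization and 131 and 195 with no filter. Without knockout replicate 2 it was 124 and 1044, and without wild-type replicate 1 it was 9 and 16. Default weight estimation did not converge, so gene-by-gene weights were used, a choice made after seeing the data. Egf could not be fitted at 1 FPKM in all 6 libraries. No paired analysis was possible because the mouse numbers of the genotypes do not match. Erbb4 and Nrg4 lie too low for a difference to be read.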
